A study of Mus musculus with 12 samples.

Results

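The 10 genes described here encode enzymes and chaperones that modify and crosslink collagen, namely P4ha1, P4ha2, Plod1, Plod2, Plod3, Serpinh1, Ppib, Crtap, Lox and Loxl2. They were chosen by name from the array's annotation, and every non-control probe carrying one of these names was taken. All 10 were on the array, with 15 probes in all among 41174 probes and 27962 gene names. The samples were single-colour Agilent 44K arrays of the hypertrophic zone, the layer of enlarged chondrocytes that makes collagen X, microdissected from 1 tibia of each of 12 mice aged 14 days. Schmid mice (Col10a1 p.Asn617Lys) carried a knocked-in mutation of endogenous collagen X and were homozygous in the study's account. Cog mice (ColXTgcog) carried a transgene in which the Col10a1 promoter drives the misfolding cog form of thyroglobulin in hypertrophic chondrocytes. The study did not separate hemizygous from homozygous Cog mice and states that both were most likely included. Each mutant had its own group of wildtype littermates, wildtype (Schmid background) and wildtype (Cog background), and each of the 4 groups held 3 mice. All levels below are log2 array signals after background correction and quantile normalization, and a level is compared only with levels of the same probe.

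Fibrillar and network collagens are modified in the ER before they fold. Prolyl 4-hydroxylase (alpha subunits P4ha1 and P4ha2) makes the hydroxyproline that stabilizes the triple helix, lysyl hydroxylases (Plod1, Plod2, Plod3) make the hydroxylysine used for glycosylation and crosslinks, and Crtap and cyclophilin B (Ppib) act with prolyl 3-hydroxylase. Hsp47 (Serpinh1) binds the folded triple helix on its way through the ER, and outside the cell the lysyl oxidases Lox and Loxl2 oxidize lysines so that fibrils crosslink. In the growth plate these proteins serve collagens II, IX and XI of the cartilage matrix and collagen X of the hypertrophic zone.

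P4ha1, P4ha2, Plod3, Ppib and Loxl2 had 2 probes each, and at Loxl2, Plod3 and Ppib the upstream probe gave values unlike those of the probe nearer the 3′ end, so the upstream probe sequences are shown, 5′ to 3′ and with no base capitalised. Each read through at least 1 of its 3 forward frames without a stop.
Loxl2 upstream probe: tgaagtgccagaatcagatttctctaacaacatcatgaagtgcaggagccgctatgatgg
Plod3 upstream probe: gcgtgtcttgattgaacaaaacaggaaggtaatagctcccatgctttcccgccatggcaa
Ppib upstream probe: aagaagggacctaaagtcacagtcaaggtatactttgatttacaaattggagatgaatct
In the mm7 build of the array's annotation the Loxl2 probe lay at chr14:64336628-64336687, 3053 bases upstream of the other Loxl2 probe (chr14:64339741-64339800). The Plod3 probe spanned chr5:135961736-135961904, 169 bases of genome for a probe of 60, so it crossed an intron, and 5214 bases separated it from the other Plod3 probe (chr5:135967119-135967178). The Ppib probe spanned chr9:66090015-66091140, also across an intron and 5048 bases upstream of its partner (chr9:66096189-66096248). RefSeq carried the annotated accession of 13 of the 15 probes under the same gene symbol, the exceptions being the brighter Loxl2 probe (XM_985144) and the dim P4ha2 probe (AK053504).

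The arrays were not alike in every respect. Between 39.6% and 61.8% of spots were well above background, and the median signal of the negative control spots ranged from 202 to 1894. The Schmid arrays filled slide 1, the wildtype (Schmid background) arrays lay on slides 2 and 3, Cog on slide 3 and wildtype (Cog background) on slide 4, so slide and genotype cannot be told apart. Replicate 1 was the highest array of its group at 7 of 10 members in Schmid, 8 in its wildtype, 7 in Cog and 9 in its wildtype, while it was the highest at 38.6%, 35.4%, 33.0% and 39.5% of the 12804 probes that every array measured well above background. This is visible in the plot of deviations by array, and the results that follow are given with and without the replicate 1 arrays where that matters. All 8 chondrocyte markers (Col2a1, Acan, Comp, Sox9, Hapln1, Matn3, Col10a1, Ihh) were well above background on every array, in accord with the cartilage label of the tissue. The summed log2 signal of these 8 was 20.55 to 20.72 in Schmid against 20.91 to 21.14 in its wildtype. In Cog it was 20.87 to 21.07 against 20.88 to 21.05. This sum does not show the change in Ihh. Of the 8 markers, 1 passed the limits for a call given below in each mutant, and it was Ihh in both. Ihh differed by -3.55 in Schmid (limma adjusted p = 0.00014) and by -1.37 in Cog (adjusted p = 0.036). Its change in Schmid minus that in Cog was -2.18 (adjusted p = 0.0093). Markers of other cells differed too. The summed log2 signal of 5 endothelial markers was 12.32 to 12.87 in Schmid against 14.16 to 14.92 and 13.40 to 14.25 in Cog against 14.47 to 14.86, lower without overlap in both. Of the 5, 3 passed the same limits in Schmid, all lower, and 0 in Cog. The Cog mean was below its wildtype at 3 of them and above it at 2 (Tek by 0.38 and Pecam1 by 0.09). In Schmid that of 4 red cell markers was 14.46 to 15.96 against 17.91 to 19.87, that of 5 osteoclast markers 13.29 to 13.63 against 13.68 to 14.96, and that of 7 osteoblast markers 19.03 to 19.51 against 19.48 to 20.35. In Cog, with overlap, the red cell sum was 16.50 to 17.92 against 17.14 to 18.20 and the osteoblast sum 19.29 to 19.83 against 19.67 to 20.32. The sum of 5 neutrophil markers was higher in Cog without overlap, at 14.01 to 16.84 against 12.93 to 13.66. In Schmid it was 11.67 to 15.31 against 12.42 to 18.59, with overlap, and 0 of the 5 passed the limits in either mutant. Of the 7 osteoblast markers 1 passed the same limits in each mutant, Col1a1 in Schmid (-1.23, adjusted p = 0.036) and Dmp1 in Cog (-1.90, adjusted p = 0.044). Of the defining endothelial markers, Pecam1 stayed near background on all 12 arrays. The part of these cells in the results was not tested, and fewer cells of a type cannot be told apart from less RNA per cell.

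**Figure D1:**
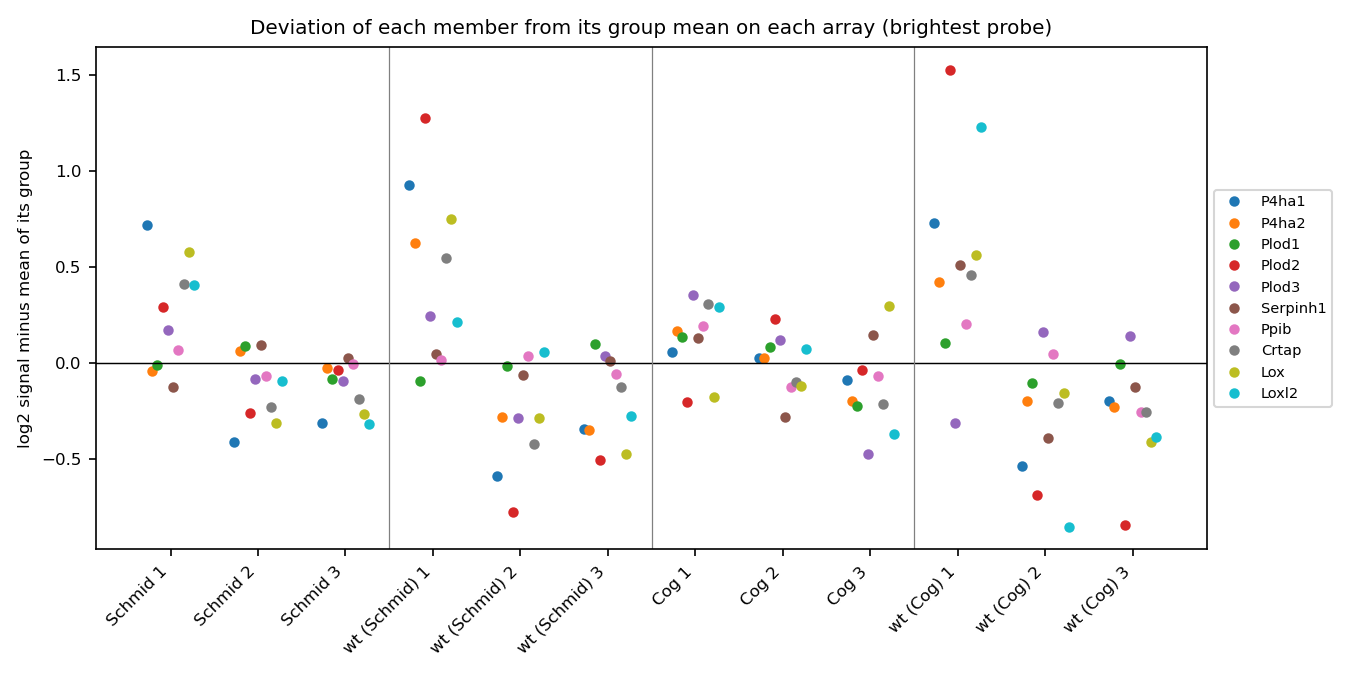
Each point is a member's log2 signal (brightest probe) on an array minus the mean of its 3-array group, with the 12 arrays along the x axis and the 10 members as colours. The replicate 1 arrays hold most of the points far above 0, and in wildtype (Cog background) 9 of 10 members were highest on replicate 1.

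At its brighter probe Loxl2 was the member that changed in both mutants, higher by 3.49-fold in Schmid and 4.61-fold in Cog, while its other probe rose in Schmid only. At the brightest probe of each gene, 1 of 10 members passed the threshold (adjusted p of 0.05 or less in the limma fit, Benjamini-Hochberg over all probes, and a change of at least 2-fold) in Schmid and 1 of 10 in Cog. Over all probes the same threshold was passed by 10.5% in Schmid and 2.31% in Cog, 5.78% and 1.56% higher and 4.69% and 0.748% lower, and over the brightest probe of each gene name by 11.5% and 2.73%, so the members' count lay near the background in Schmid. Of the calls over all probes in Schmid 55.2% were higher, but 42.0% with the scanner's processed signal and 42.6% with a common 75th percentile. The median log2 fold change of the 10 members was 0.34 in Schmid and -0.05 in Cog, against -0.062 and -0.004 over all probes. At an unadjusted p of 0.05 or less there were 4 members in Schmid (background 39.3%) and 2 in Cog (21.3%). In Schmid all 3 arrays lay above the wildtype arrays at 3 members (P4ha2, Ppib and Loxl2) and below them at 1 (Serpinh1), and over all probes the arrays of the 2 groups did not overlap at 45.4%, with Schmid above at 19.3%. In Cog the arrays were separate at Loxl2 alone, against 29.4% of all probes, 16.4% with Cog above. Without the replicate 1 arrays 3 members passed in Schmid (P4ha1, P4ha2 and Loxl2) and Loxl2 alone in Cog, an alternative added after seeing the data.

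**Figure D2:**
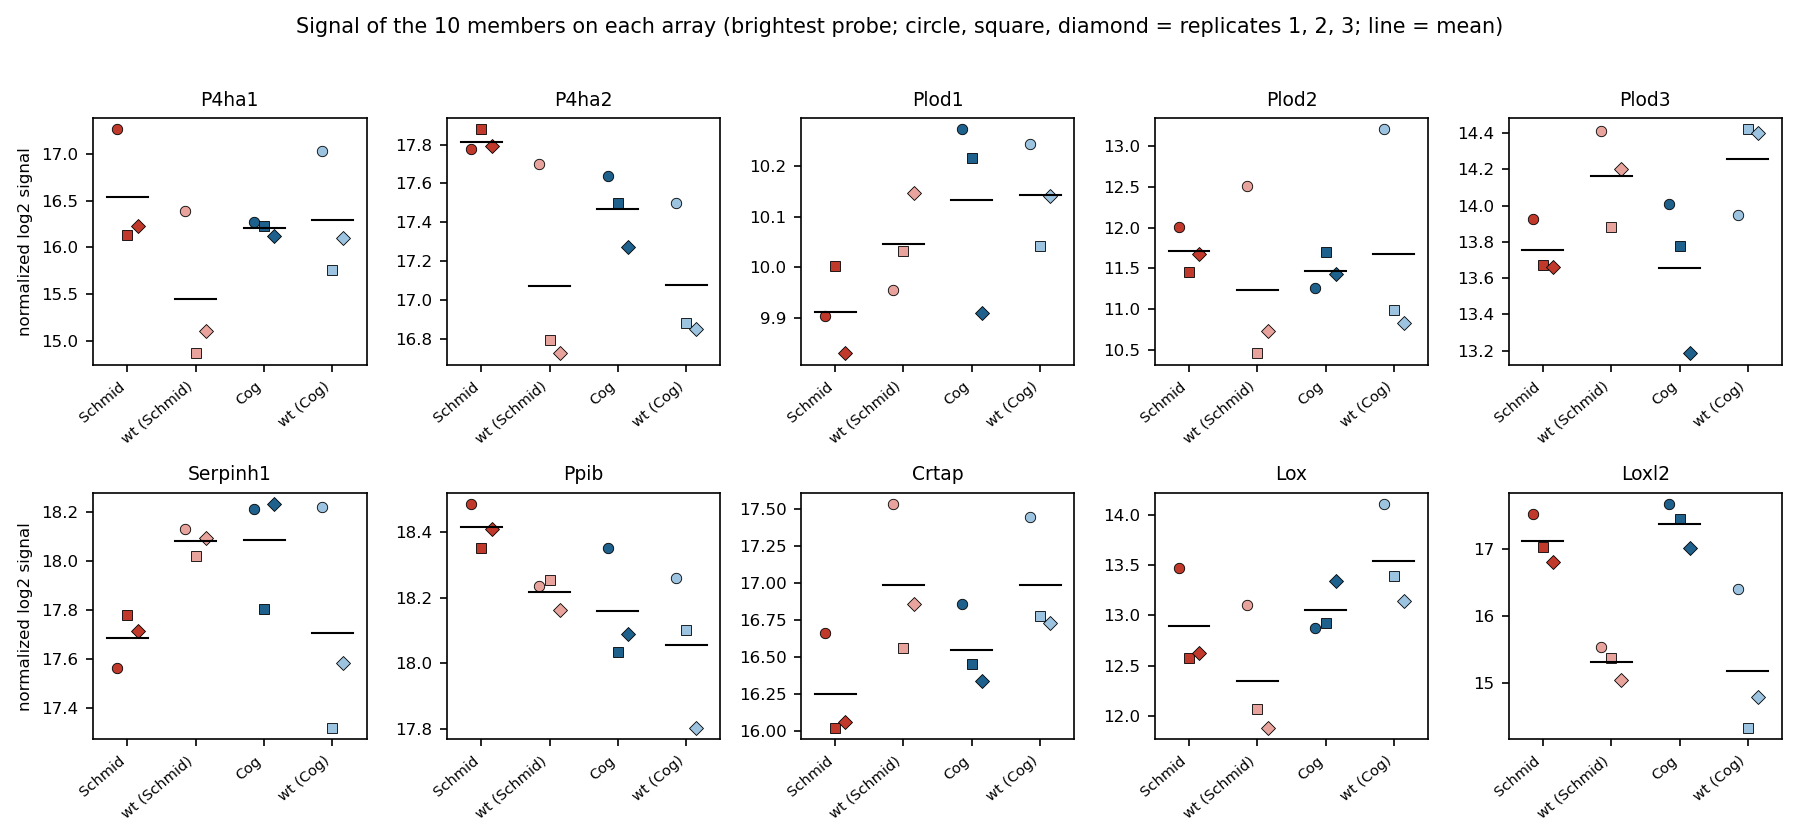
Each panel gives the normalized log2 signal of a member (brightest probe) on all 12 arrays, with circles, squares and diamonds for replicates 1, 2 and 3 and a line for the group mean. The Loxl2 panel shows all 6 mutant arrays above all 6 wildtype arrays, and the Plod2 panel shows replicate 1 of each wildtype group far above its partners.

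P4ha1, an alpha subunit of prolyl 4-hydroxylase, gave 17.26, 16.13 and 16.23 in Schmid against 16.39, 14.87 and 15.11 in its wildtype. Both groups had their highest value on replicate 1, and the groups overlapped. The difference was 1.08 on the log2 scale (2.12-fold, SE 0.45, limma adjusted p = 0.10). With the replicate number as a block in the limma fit the same difference passed the threshold (adjusted p = 0.019), and the Schmid count became 2 of 10 (P4ha1 and Loxl2). Without the replicate 1 arrays the Schmid difference was 1.19 (adjusted p = 0.0040). The change in Schmid minus that in Cog was then 0.94 (adjusted p = 0.040). In Cog P4ha1 gave 16.27, 16.23 and 16.12 against 17.02, 15.76 and 16.10, a log2 difference of -0.09 (SE 0.45, adjusted p = 0.94). The Cog arrays lay close together within the wider range of their wildtype. The wildtype groups themselves had P4ha1 means of 15.46 (Schmid background) and 16.29 (Cog background), a difference of -0.84 (SE 0.45, adjusted p = 0.45). The mutant means were 16.54 in Schmid and 16.21 in Cog. The second P4ha1 probe, 224 bases upstream, differed by 0.79 and 0.21 in the 2 mutants, with adjusted p of 0.15 and 0.80.

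P4ha2, the other alpha subunit, gave 17.77, 17.88 and 17.79 in Schmid against 17.70, 16.79 and 16.72 in its wildtype. Every Schmid array was above every wildtype array, replicate 1 of the wildtype only narrowly below. The log2 difference was 0.74 (SE 0.26, 95% confidence interval 0.17 to 1.32, adjusted p = 0.061), under 2-fold. Without the replicate 1 arrays it was 1.08 and passed the threshold (limma adjusted p = 0.0025). In Cog the values were 17.64, 17.50 and 17.27 against 17.50, 16.88 and 16.85, with overlap at replicate 1 and a log2 difference of 0.39 (SE 0.26, adjusted p = 0.42). Its further probe (accession AK053504, 4090 bases upstream) was well above background on 1 of 12 arrays, Cog replicate 3, at 10.99.

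Both alpha subunit genes are known targets of the hypoxia-inducible factors, whose elements hold the core ACGTG or GCGTG, so their promoters are shown with every match to either core, on either strand, in capitals (RefSeq, GRCm38.p6, the 250 bases before the start).
P4ha1 promoter, chr10:59323046-59323295, + strand: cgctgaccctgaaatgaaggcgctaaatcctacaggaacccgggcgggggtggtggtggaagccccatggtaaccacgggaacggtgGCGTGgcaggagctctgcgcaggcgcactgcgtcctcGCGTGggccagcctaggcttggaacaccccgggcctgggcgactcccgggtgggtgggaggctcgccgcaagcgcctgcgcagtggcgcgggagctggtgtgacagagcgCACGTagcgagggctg
P4ha2 promoter, chr11:54100674-54100923, + strand: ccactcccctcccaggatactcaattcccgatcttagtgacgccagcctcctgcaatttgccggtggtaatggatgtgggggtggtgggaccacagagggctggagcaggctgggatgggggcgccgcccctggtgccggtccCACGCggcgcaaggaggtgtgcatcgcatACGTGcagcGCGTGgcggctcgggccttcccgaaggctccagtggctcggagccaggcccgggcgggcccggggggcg
Promoter windows from 250 bases before to 50 bases after the start were held for 7 members, without Plod2, Lox and Loxl2. ACGTG was found in 5 of them (P4ha1, P4ha2, Plod3, Serpinh1, Ppib) and in 19.6% of all 32851 windows. GCGTG was found in 6 (P4ha1, P4ha2, Plod1, Plod3, Ppib, Crtap) and in 32.4% of all windows. CCAAT was found in 2 (Plod3 and Ppib) and in 37.4%. The printed P4ha1 and P4ha2 stretches were 69.6% and 70.0% G and C, and a match to these letters is a description and not a binding site.

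The lysyl hydroxylases showed no member past the threshold at the brightest probe. Plod1 ranged from 9.83 to 10.00 in Schmid, 9.96 to 10.15 in its wildtype, 9.91 to 10.27 in Cog and 10.04 to 10.24 in its wildtype, with log2 differences of -0.13 (adjusted p = 0.45) and -0.01 (adjusted p = 0.98) and 95% intervals of -0.40 to 0.14 and -0.28 to 0.26. Plod2, which hydroxylates the telopeptide lysines that form crosslinks, gave 12.01, 11.46 and 11.68 in Schmid against 12.51, 10.46 and 10.73 in its wildtype, and 11.27, 11.70 and 11.43 in Cog against 13.20, 10.99 and 10.83. In both wildtype groups replicate 1 stood far above the other arrays and above every mutant array. The log2 differences were 0.48 (SE 0.64, adjusted p = 0.61) and -0.21 (SE 0.64, adjusted p = 0.88), and their 95% intervals, -0.94 to 1.90 and -1.63 to 1.21, leave changes of more than 2-fold either way. Without the replicate 1 arrays the Schmid difference was 0.97 (adjusted p = 0.0087), just under 2-fold, and leaving out single arrays moved it from 0.09 to 1.12, the highest without wildtype (Schmid background) replicate 1 (adjusted p = 0.18). In Cog the value without the replicate 1 arrays was 0.65.

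Plod3, which also has glycosyltransferase activity, differed between its probes. At the brighter probe the values were 13.93, 13.68 and 13.66 in Schmid against 14.41, 13.88 and 14.20, and 14.01, 13.78 and 13.18 in Cog against 13.95, 14.42 and 14.40. The mutant means were lower and the groups overlapped in both comparisons, with log2 differences of -0.41 (SE 0.23, adjusted p = 0.21) and -0.60 (SE 0.23, adjusted p = 0.16). The upstream, intron-crossing probe gave 10.30, 10.44 and 10.45 in Schmid against 9.80, 10.24 and 10.07 in its wildtype, and 9.99, 9.85 and 10.08 in Cog against 10.56, 10.60 and 10.68. All Schmid arrays were above their wildtype and all Cog arrays below theirs. The log2 differences were 0.36 (SE 0.13, adjusted p = 0.062) and -0.63 (SE 0.13, adjusted p = 0.023), each under 2-fold. Their difference, 0.995 (SE 0.18, adjusted p = 0.0055), was the single interaction past adjusted p of 0.05 among the 15 member probes, where 16.6% of all probes passed. At the brightest probes none of the 10 members passed, and 1 (Serpinh1) had an unadjusted p of 0.05 or less, against 32.5% of all probes. The wildtype groups also stood apart at this probe, by -0.57 (unadjusted p = 0.000985, adjusted p = 0.068), and 1 Cog array was not well above background there. The cause of the disagreement between the Plod3 probes was not tested.

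**Figure D3:**
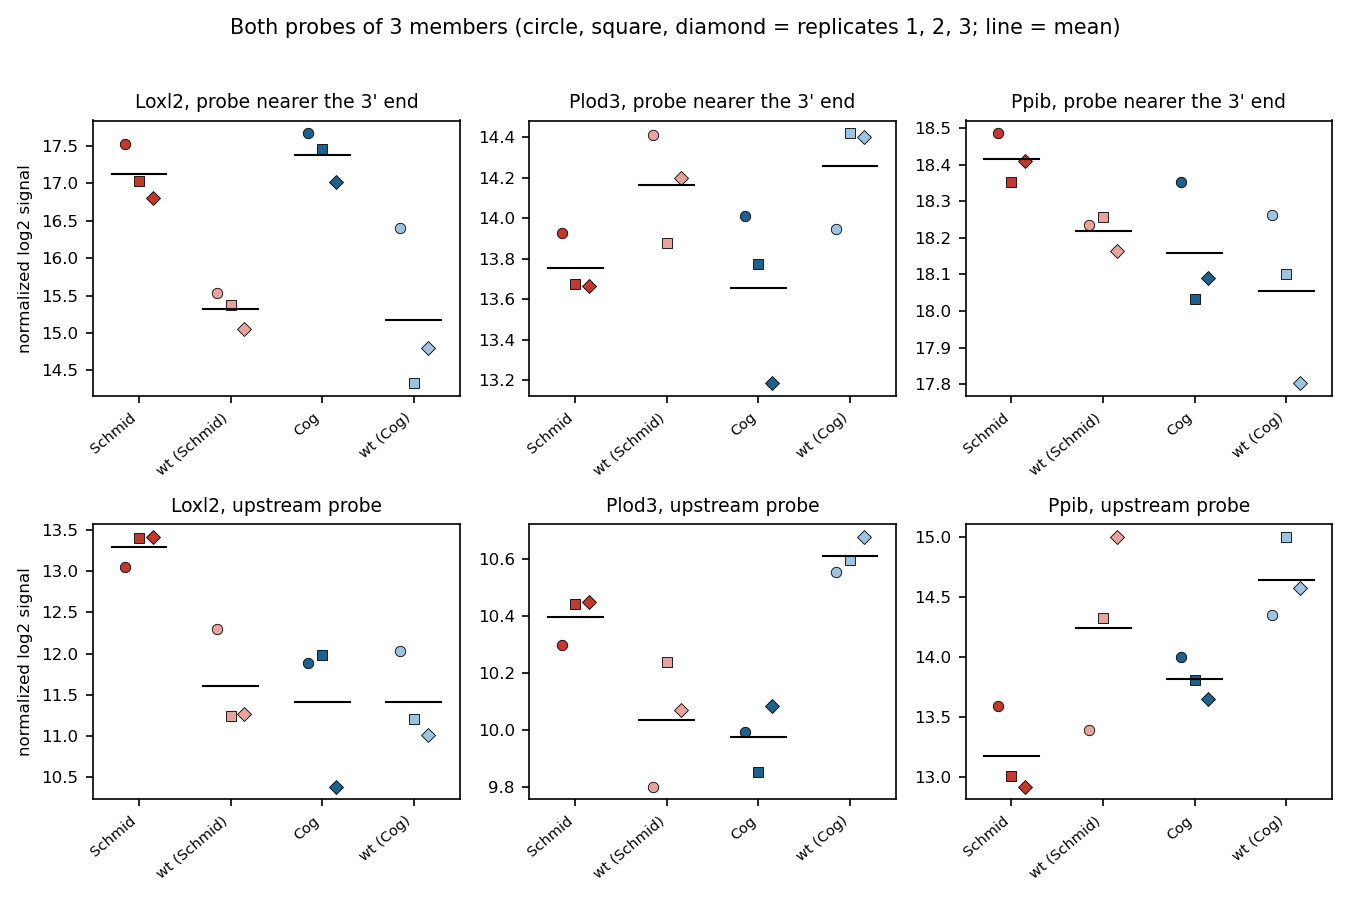
The top row gives the probe nearer the 3′ end and the bottom row the upstream probe of Loxl2, Plod3 and Ppib, as normalized log2 signal on the 12 arrays (circles, squares and diamonds for replicates 1, 2 and 3, lines for means). At Loxl2 the Cog arrays are above their wildtype in the top panel, and overlap it in the bottom panel.

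The chaperones gave small differences. Serpinh1 gave 17.56, 17.78 and 17.71 in Schmid against 18.13, 18.02 and 18.09 in its wildtype, and 18.21, 17.80 and 18.23 in Cog against 18.22, 17.32 and 17.58. All Schmid arrays were below their wildtype, whereas the Cog arrays overlapped theirs. The log2 differences were -0.40 (SE 0.21, adjusted p = 0.18) and 0.38 (SE 0.21, adjusted p = 0.34). Their difference was -0.77 (SE 0.30, unadjusted p = 0.025, adjusted p = 0.10). Crtap, the cartilage-associated protein, gave 16.66, 16.02 and 16.07 in Schmid against 17.53, 16.56 and 16.86 in its wildtype, with overlap at Schmid replicate 1. Its log2 differences were -0.74 in Schmid (SE 0.29, adjusted p = 0.090) and -0.43 in Cog (SE 0.29, adjusted p = 0.43). The Cog values were 16.86, 16.46 and 16.34 against 17.45, 16.78 and 16.73, and these groups overlapped at Cog replicate 1. With the replicate block the Schmid difference had an adjusted p of 0.0054 at the same size, below 2-fold.

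Ppib, cyclophilin B, was nearly level at its brighter probe, at 18.49, 18.35 and 18.41 in Schmid against 18.24, 18.26 and 18.16 in its wildtype (log2 difference 0.20, SE 0.13, adjusted p = 0.30). In Cog it gave 18.35, 18.03 and 18.09 against 18.26, 18.10 and 17.80 (0.10, SE 0.13, adjusted p = 0.70). The Schmid arrays were narrowly above their wildtype, and the Cog arrays overlapped theirs. The upstream, intron-crossing probe gave 13.60, 13.01 and 12.92 in Schmid against 13.39, 14.33 and 15.004 in its wildtype, and 14.00, 13.81 and 13.65 in Cog against 14.35, 15.005 and 14.58. All Cog arrays were below their wildtype, and in Schmid replicate 1 of the wildtype fell within the mutant range. The log2 differences were -1.07 in Schmid (SE 0.36, unadjusted p = 0.013, adjusted p = 0.053) and -0.82 in Cog (SE 0.36, adjusted p = 0.22). Without the replicate 1 arrays the Schmid difference was -1.70 (adjusted p = 0.0055), and the reason the probes differ was not tested.

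Loxl2, a lysyl oxidase of the crosslinking step, gave 17.53, 17.03 and 16.81 in Schmid against 15.53, 15.38 and 15.05 in its wildtype at its brighter probe. In Cog the values were 17.67, 17.45 and 17.01 against 16.40, 14.32 and 14.79. Every mutant array was above every wildtype array of either background. Loxl2 rose by 1.80 in Schmid (3.49-fold, SE 0.45, 95% interval 0.81 to 2.80, adjusted p = 0.017) and by 2.21 in Cog (4.61-fold, SE 0.45, 95% interval 1.21 to 3.20, adjusted p = 0.025), and these changes differed by -0.40 (SE 0.63, adjusted p = 0.70). At the upstream probe Loxl2 gave 13.05, 13.41 and 13.42 in Schmid against 12.30, 11.24 and 11.27, and 11.89, 11.98 and 10.38 in Cog against 12.03, 11.20 and 11.01. The Schmid arrays were again all above their wildtype, but the Cog arrays overlapped theirs. Here Loxl2 rose by 1.69 in Schmid (3.22-fold, SE 0.45, adjusted p = 0.023), while the Cog difference was 0.00 (SE 0.45, 95% interval -0.997 to 1.0, adjusted p = 1.0). The interaction at this probe was 1.69 (SE 0.64, unadjusted p = 0.024, adjusted p = 0.097). The rise in Cog thus rests on 1 of 2 probes, the one whose annotated entry RefSeq did not carry under this symbol. The mean over both probes changed by 1.10 in Cog (limma adjusted p = 0.12) and 1.75 in Schmid (adjusted p = 0.0078).

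The Loxl2 calls were close to the threshold. Without Schmid replicate 1, wildtype (Schmid background) replicate 2 or wildtype (Schmid background) replicate 3 the Schmid change at the brighter probe was 1.60, 1.83 and 1.67 with adjusted p of 0.067, 0.051 and 0.057. Without Cog replicate 1 or 2 or wildtype (Cog background) replicate 2 or 3 the Cog change was 2.06, 2.17, 1.78 and 2.01, with adjusted p of 0.067, 0.064, 0.089 and 0.084. With scan day as a block the Schmid change was again 1.67 (adjusted p = 0.057). This is the same fit as leaving out wildtype (Schmid background) replicate 3, the only array scanned on another day than its group, and not a further check. All Cog and wildtype (Cog background) arrays shared a scan day, so the block could not adjust the Cog change. Within the first scan day, which holds the 3 Schmid and 2 wildtype arrays, the Schmid change was 1.67 (adjusted p = 0.022).

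Lox, the enzyme that gave the family its name, gave 13.47, 12.58 and 12.63 in Schmid against 13.10, 12.06 and 11.88 in its wildtype, and 12.87, 12.93 and 13.34 in Cog against 14.11, 13.39 and 13.14. Replicate 1 was highest in 3 of the 4 groups, and mutant and wildtype overlapped in both comparisons. The log2 differences were 0.54 (SE 0.37, adjusted p = 0.30) and -0.50 (SE 0.37, adjusted p = 0.48), which differed by 1.04 (SE 0.52, adjusted p = 0.20). The wildtype groups stood further apart, with every wildtype (Schmid background) array below every wildtype (Cog background) array. That difference was -1.20 (SE 0.37, unadjusted p = 0.0085) and did not pass adjustment (adjusted p = 0.17). Same-numbered arrays of the 2 wildtype groups also deviated together, and with the replicate block the difference had an adjusted p of 0.098 over the 12 arrays and 0.18 over the wildtype arrays alone. It passed with array weights (-1.22, adjusted p = 0.047), without wildtype (Schmid background) replicate 1 (-1.57, adjusted p = 0.037) and without the replicate 1 arrays (-1.29, adjusted p = 0.037). Without the block no other member at its brightest probe differed between the wildtype groups at an unadjusted p of 0.05 or less, against 14.1% of all probes, and 0.872% of all probes passed adjustment. With the block over the 12 arrays P4ha1 also did, at -0.84 (SE 0.25, unadjusted p = 0.010, adjusted p = 0.18), against 14.3% of all probes.

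**Figure D4:**
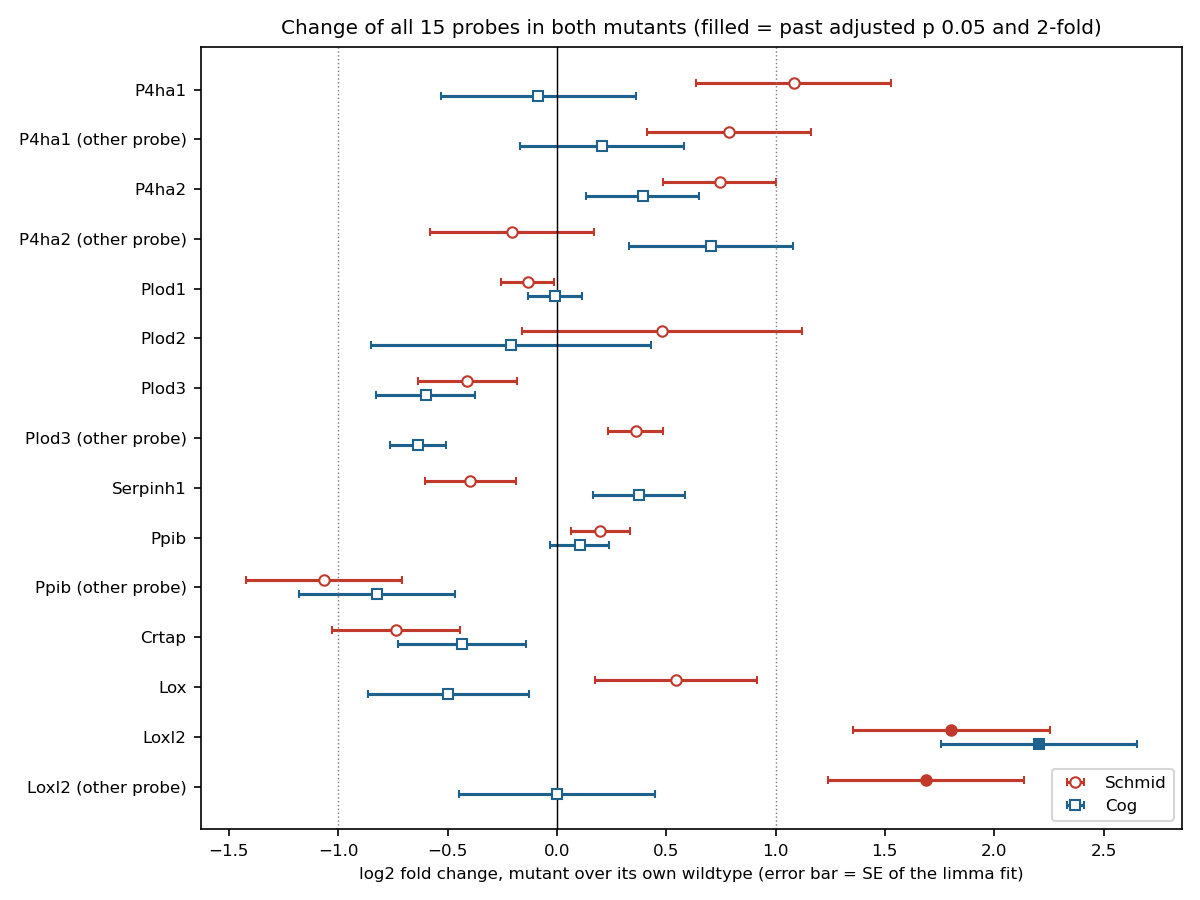
Log2 fold change of each of the 15 probes in Schmid (circles) and Cog (squares) over its own wildtype, with error bars of 1 SE from the limma fit, filled where past adjusted p of 0.05 and 2-fold, and dotted lines at 2-fold. The brighter Loxl2 probe is filled in both mutants, its other probe in Schmid only.

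Of 7 genes listed for procollagen propeptide removal, a step that the 10 members do not cover, 4 fell in Schmid and 0 in Cog. Over all probes 4.69% fell in Schmid and 0.748% in Cog. This step was singled out after the values were seen. Of 30 further genes of collagen biosynthesis, 27 had a probe of that name, without P3h4, Sec13 and Adamts14. In Schmid 2 of the 27 rose and 4 fell past the threshold, against 5.78% and 4.69% of all probes, and their median log2 fold change was -0.29. In Cog none rose and 1 fell, against 1.56% and 0.748% of all probes, with a median of -0.05. The 2 that rose were P4hb, the protein disulphide isomerase that is the beta subunit of prolyl 4-hydroxylase (1.26, SE 0.32, adjusted p = 0.018), and Sec23a, a COPII coat component of export from the ER (1.85, SE 0.55, adjusted p = 0.036). P4hb gave 18.98, 18.82 and 18.74 in Schmid against 18.33, 17.03 and 17.42, with replicate 1 again highest in both and with a saturated spot on Schmid replicate 2, so that array gives only a lower bound. Without Schmid replicate 1 or wildtype (Schmid background) replicate 2 or 3 the P4hb difference was 1.19, 0.97 and 1.17 (adjusted p of 0.062, 0.070 and 0.059), and the Sec23a call was lost without any 1 Schmid array, either of the same 2 wildtype arrays or wildtype (Cog background) replicate 2 (1.45 to 1.96, adjusted p of 0.051 to 0.13). The other Sec23a probe (-0.04) stayed near background throughout. In the main fit the beta subunit passed while neither alpha subunit did. With the replicate block P4ha1 passed too, and without the replicate 1 arrays both P4ha1 and P4ha2 did. The difference between subunits was not tested. P3h1, the prolyl 3-hydroxylase partner of Crtap and Ppib, differed by 1.56 (SE 0.51, adjusted p = 0.051) in Schmid and by 0.16 in Cog. With the replicate block P3h1 passed in Schmid at the same size (adjusted p = 0.029), and it passed in 12 of 28 alternatives in all (adjusted p from 0.0027 to 0.26 over the 28).

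Pcolce, which enhances procollagen C-proteinase, gave 13.78, 14.51 and 14.22 in Schmid against 17.00, 16.31 and 16.07 in its wildtype and fell by 2.29 (SE 0.37, adjusted p = 0.0021). Adamts2, the procollagen N-proteinase, fell by 1.92 (SE 0.29, adjusted p = 0.0015), Bmp1, the C-proteinase, fell by 1.84 (SE 0.28, adjusted p = 0.0016) and Pcolce2 fell by 1.34 (SE 0.19, adjusted p = 0.0012). Further probes did not all do the same. The other Bmp1 probe fell by 1.72 (adjusted p = 0.014), and of the further Adamts2 probes 1 fell by 1.04 (adjusted p = 0.011) while the others gave -0.35 (adjusted p = 0.65) and 0.18 (adjusted p = 0.58). At the brightest probes of all 4 genes the Schmid arrays lay below the wildtype arrays without overlap. In Cog these 4 genes differed by -0.40, -0.39, -0.06 and 0.14, none past the threshold. The change in Schmid minus that in Cog was -1.90 for Pcolce (adjusted p = 0.033), -1.52 for Adamts2 (adjusted p = 0.030), -1.78 for Bmp1 (adjusted p = 0.014) and -1.47 for Pcolce2 (adjusted p = 0.0060). At the other Bmp1 probe it was -1.16 (adjusted p = 0.19). This difference passed adjustment at 16.6% of all probes. Adamts3, Tll1 and Tll2, further proteinases of this step, did not pass in either mutant, and Tll2 was well above background on no array and Tll1 on 1. The chondrocyte, endothelial, red cell, osteoclast and osteoblast marker sums given above were also lower in Schmid, the last with overlap, and their part in these 4 genes was not tested. In Cog the gene that fell was Fkbp7, an ER prolyl isomerase, at 11.18, 12.19 and 11.85 against 13.17, 12.78 and 12.65 (fell by 1.13, SE 0.26, adjusted p = 0.041), a call lost on leaving out 9 of the 12 arrays in turn (-0.84 to -1.23) and kept without Schmid replicate 1, wildtype (Schmid background) replicate 1 or Cog replicate 2. Loxl1, Loxl3 and Loxl4, the other lysyl oxidases, had adjusted p of 0.67, 0.64 and 0.77 in Schmid and 0.88, 0.70 and 0.61 in Cog.

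**Figure D5:**
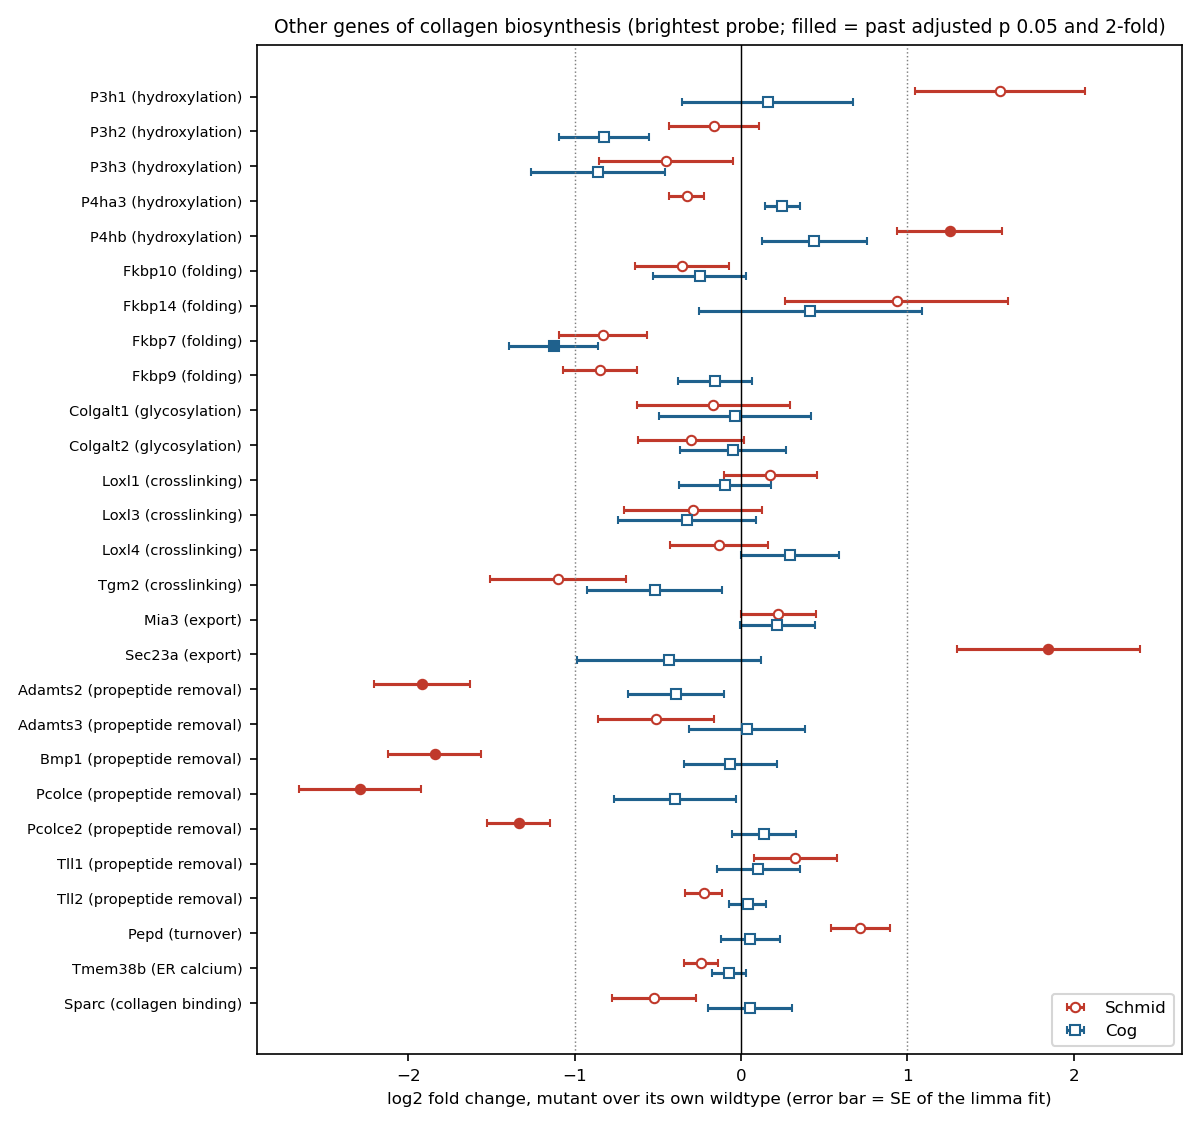
Log2 fold change of 27 other genes of collagen biosynthesis (brightest probe) in Schmid (circles) and Cog (squares) over wildtype, labelled with their role, with bars of 1 SE and filled symbols past adjusted p of 0.05 and 2-fold. The filled symbols to the left of the -1 line in Schmid are Adamts2, Bmp1, Pcolce and Pcolce2, all of propeptide removal.

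Of 12 substrate collagens, 1 rose in Schmid (Col5a1, by 1.31, adjusted p = 0.050) and 4 fell, against 5.78% and 4.69% of all probes. The log2 fold changes of those that fell were -1.23 for Col1a1, -1.17 for Col9a2, -1.61 for Col9a3 and -1.59 for Col11a2 (adjusted p of 0.036, 0.0088, 0.0082 and 0.00082). The Col5a1 call was lost on leaving out 9 of the 12 arrays in turn and kept without wildtype (Schmid background) replicate 1 or wildtype (Cog background) replicate 1 or 2. The Col1a1 call was lost without Schmid replicate 1 or 3, wildtype (Schmid background) replicate 1 or 2 or wildtype (Cog background) replicate 3, and Col9a2 was below 2-fold without Schmid replicate 1 (-0.90). Col1a1 had an adjusted p of 0.060 with the replicate block. Further probes of Col5a1 (-0.09) and Col11a2 (-0.46, adjusted p = 0.11) did not pass. The brightest Col11a1 probe was saturated on 5 arrays, and its other probe fell by 1.64 (adjusted p = 0.037). In Cog none passed adjustment, and 1 had an unadjusted p of 0.05 or less in the limma fit, against 21.3% of all probes. Col10a1, the collagen mutated in Schmid, differed by -0.02 in Schmid (SE 0.62, adjusted p = 0.99) and 0.996 in Cog (SE 0.62, adjusted p = 0.39), so the enzymes' values were not set against a change in collagen X that passed the test.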

How the data were processed

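The authors deposited, per sample, the output of Agilent Feature Extraction 9.5.3 with the intensity of each spot, and a table of normalized log2 values, whose scale and centring were found by setting it against the arrays. RNA was amplified linearly in 2 rounds before Cy3 labelling. Mean and local background intensities were corrected by normexp (offset 50), stripped of control spots, quantile normalized and, for repeated spots, averaged per probe (limma 3.58.1, R 4.3.3); outlier-flagged spots were left out, which kept 99.8% of non-control spots. All 12 arrays were fitted with 1 mean per group, and p-values were adjusted by Benjamini-Hochberg over 41174 probes. A call needed an adjusted p of 0.05 or less and 2-fold. The gene's brightest probe over the 12 arrays represents it, and a further probe of a member is described where its call or values differ. Named genes were all members and, in the other collagen lists, those past the threshold in either mutant. P3h1, P4ha3, Col11a1, the other lysyl oxidases, Adamts3, Tll1, Tll2 and Col10a1 were named after their values were seen. Members, lists and alternatives were chosen with earlier results of these data known. Each number labels a separate mouse, and the number of arrays limits the precision. The fit was checked on simulated data. Alternatives changed the signal (the deposited log2 values included), normalization, offset, dim-probe filter, arrays in the fit, array weights, trends over array rows and GC, blocks (slide, scan day, replicate), size test, probe choice and single arrays. The scan day block gives the same fit as leaving out wildtype (Schmid background) replicate 3. P3h1 to P3h3 and Colgalt1 and Colgalt2 were found under older symbols.

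Over the 12804 probes that every array measured well above background, deviations of same-numbered Schmid and wildtype arrays correlated at 0.306, 0.283 and 0.117, each over 0.1. The replicate number was therefore also fitted as a block. Over all probes the correlations were 0.193, 0.171 and 0.066. Between the wildtype groups, which are of different backgrounds, they were 0.505, 0.115 and 0.274 over probes well above background, also each over 0.1. The correlations thus do not show that Schmid mice were paired with their wildtype. For Cog with its wildtype the correlations were -0.209, 0.153 and -0.201. The labels name no shared litter or day. Whether the replicate numbers mark pairs was not settled, and the main fit used no block. Marker lists of fibroblasts, osteoclasts and neutrophils were also read: their summed log2 signals were 15.88 to 17.03, 13.29 to 13.63 and 11.67 to 15.31 in Schmid, 15.78 to 17.30, 13.68 to 14.96 and 12.42 to 18.59 in its wildtype, 16.19 to 16.47, 13.22 to 14.53 and 14.01 to 16.84 in Cog, and 16.03 to 16.89, 13.78 to 14.99 and 12.93 to 13.66 in its wildtype.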

Additional observations from a re-analysis of the deposited data

Results flagged for a closer look

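At 6 probes of members or of genes called at their brightest probe the change in Schmid differed from the change in Cog by the interaction term of the limma fit. Over all probes 16.6% passed this test. At 15 member probes 1 passed, and at brightest probes 5 of the 27 other collagen genes and 1 of 12 substrate collagens did. Genes outside the members were taken because they were already called in a mutant, and that change is part of the difference tested, which favours passing. For the upstream Plod3 probe the difference was 1.0 (SE 0.18, adjusted p = 0.0055), from a positive value in Schmid and a negative value in Cog. For Bmp1 it was -1.78 (SE 0.40, adjusted p = 0.014), for Pcolce -1.90 (SE 0.52, adjusted p = 0.033), for Pcolce2 -1.47 (SE 0.27, adjusted p = 0.0060) and for Adamts2 -1.52 (SE 0.41, adjusted p = 0.030). For Col11a2 it was -1.34 (SE 0.30, adjusted p = 0.014). These last 5 genes fell in Schmid and did not pass the threshold in Cog. On leaving out arrays in turn the difference lost adjusted significance for Pcolce without 7 of the 12 arrays (kept without Schmid replicate 2, wildtype (Schmid background) replicate 1 or 3, Cog replicate 2 or wildtype (Cog background) replicate 1) and for Adamts2 without 6 (Schmid replicate 1 or 3, wildtype (Schmid background) replicate 2, Cog replicate 1 or 3 or wildtype (Cog background) replicate 2). The dimmer Col11a1 probe also passed (-2.54, adjusted p = 0.034). P4ha3, the further listed gene past this test at its brightest probe (-0.57, adjusted p = 0.028), was well above background on no array.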

How the results depend on the processing

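Loxl2 at its brighter probe stayed higher in both mutants under every alternative run, by 1.51 to 1.96 in Schmid (limma adjusted p of 0.0013 to 0.067) and 1.78 to 2.82 in Cog (0.0015 to 0.11). The members past the threshold in Schmid numbered 2 with the processed signal (quantile), a common 75th percentile, array weights, a row trend removed or the replicate block (12 arrays or own 6), 3 with the processed signal at a common 75th percentile, 0 with scan day as a block or limma treat, and 0 to 3 leaving out arrays in turn. In Cog they numbered 0 in the own 6 arrays, with treat or as a mean over probes, and 0 to 1 leaving out arrays. Members differing between mutants numbered 1 with the processed signal (quantile), array weights, row trends, row and GC trends or slide as a random block, and 0 to 1 leaving out arrays. Without replicate 1 of any group they also numbered 1 (P4ha1). Other collagen genes higher in Schmid numbered 1 (processed signal, own 6 arrays) or 0 (treat, scan day as a block, within the first scan day), and 0 to 4 leaving out arrays (0 without Schmid replicate 1 or wildtype (Schmid background) replicate 2 or 3). Those lower in Schmid numbered 0 with treat, and in Cog 0 with either 75th percentile scaling, own 6 arrays, array weights, replicate block, treat or scan day, and 0 to 1 leaving out arrays. Beside these the replicate block added P3h1 in Schmid (3 other collagen genes higher in place of 2), took Adamts2 from the differences between mutants (-1.52, adjusted p = 0.054) and, in Schmid, Col1a1 (adjusted p = 0.060), and P4ha1 was the member it added. P3h1 passed in 12 of 28 alternatives, the replicate block among them. Without replicate 1 of any group P4ha1 was 0.25 and Plod2 0.65 in Cog. Uncalled values that turned sign were, in Cog, Plod1 at 0.10, 0.03, 0.17, 0.08 (weights and row trend), 0.11 and 0.00 (slide), Ppib at -0.03, -0.10 and -0.20, the upstream Loxl2 probe at -0.05, -0.01, 0.00 (deposited values, offset 16) and -0.04, the upstream P4ha1 probe at -0.12, and with array weights P4ha1 at 0.24 and Plod2 at 0.40. In Schmid, Ppib was -0.21 with the processed signal at a 75th percentile, where the median of all probes was -0.396 (Cog 0.429; -0.346 in Schmid for normexp at that percentile), and Plod1 0.06 without row and GC trends. The difference between mutants turned at Ppib (-0.02, -0.05, -0.16) and its upstream probe (0.12, and 0.14 with scan day). Leaving out arrays, the Cog values ranged from -0.35 to 0.28 (P4ha1), -0.01 to 0.52 (its upstream probe), -0.08 to 0.10 (Plod1), -0.63 to 0.55 (Plod2), -0.02 to 0.21 (Ppib) and -0.28 to 0.52 (upstream Loxl2), and the differences from -0.07 to 1.33 (Plod2), -0.05 to 0.37 (Plod3), -0.01 to 0.22 (Ppib), -0.67 to 0.14 (its upstream probe) and -1.02 to 0.02 (Loxl2). Calls over all probes, 4310 in Schmid and 952 in Cog, became 7008 and 361 with the processed signal at a 75th percentile and 251 and 14 with treat. The causes were not tested.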
